A study of Homo sapiens with 9 samples.

Results

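The genes described here are 37 that belong to the NRF2 pathway or encode antioxidant enzymes, measured by RNA sequencing in LN229 cells exposed to sodium formate. They are a list of gene symbols, drawn up with earlier results of these data known, and comprise 4 regulators and 33 effector genes that act on quinones and carbonyls, glutathione, thioredoxin, peroxides, superoxide or iron. All 37 were found among the 23727 genes of the deposited count table, and 36 passed the filter on low counts that left 15273 genes for testing. LN229 is an established human glioblastoma cell line, so all groups come from 1 line. The culture medium held 10% fetal bovine serum, 2 mM glutamine and 17 mM glucose. The 3 groups were untreated cells at 0 h, cells after 8 h in 500 µM sodium formate and cells after 24 h in 500 µM sodium formate, with 3 libraries each. No untreated cells were taken at 8 or 24 h, so formate and time in culture cannot be told apart in any comparison. Nothing in the labels says that the 3 replicates were separate cultures, so p-values measure the spread between these libraries, which may be technical.

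NRF2, encoded by NFE2L2, is a transcription factor that is normally bound by KEAP1 and degraded. Electrophiles and oxidants modify cysteines of KEAP1, NRF2 then accumulates, pairs with a small MAF protein such as MAFG and binds the antioxidant response element, a short DNA motif, while BACH1 represses some of the same sites. Its classical targets include NQO1, HMOX1, the glutamate-cysteine ligase subunits, thioredoxin reductase and ferritin, and the control acts largely on NRF2 protein rather than on NFE2L2 RNA. Several enzymes considered here, such as SOD2 and CAT, have antioxidant roles but are also controlled by other factors. In gliomas this pathway is studied chiefly for its links to redox balance and drug resistance.

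Sequencing depth was even, with totals of 22222298 to 25848242 counts per library, so that 3 counts correspond to 0.115 to 0.141 CPM (counts per 1000000, with libraries scaled by the TMM method). The genes described took 0.478% to 0.688% of all counts. Untreated replicate 1 was often at the extremes: among its group it was the highest library in 43.4% and the lowest in 41.9% of all genes tested. Replicate 1 was also the most frequent extreme at 8 h (highest in 38.7%, lowest in 37.8%) and at 24 h (38.6% and 39.4%). Among the 36 tested members untreated replicate 1 was the highest in 44.4%, while untreated replicate 3 was the lowest in 55.6%. Deviations of libraries that carry the same replicate number correlated positively between 0 h and the formate times. Results against 0 h are therefore also given from a fit with the replicate number as a block, called the blocked fit, wherever it changes a call. The numbers did not single out every pair: 24 h replicate 2 correlated more with untreated replicate 3 (0.426) than with untreated replicate 2 (0.334). Of the glial and neural progenitor markers VIM, NES, SOX2, OLIG2 and S100B were present at 1 CPM or more. GFAP, the astrocyte filament protein, was at 0.129 to 0.425 CPM and PROM1 at 0 to 0.172 CPM. Immune markers (3 of 5 in the table) summed to at most 0.619 CPM and endothelial markers (2 of 3 in the table) to at most 1.70 CPM in any library. Neuronal markers (2 of 3 in the table) summed to 38.9 to 54.2 CPM untreated, 46.1 to 51.8 CPM at 8 h and 54.2 to 59.2 CPM at 24 h. These 2 took opposite courses: SNAP25 had means of 11.14 CPM untreated and 23.75 CPM at 24 h, and SYT1 37.1 and 32.86 CPM. The glial list (7 of 8 in the table) summed to 5273 to 7419 CPM untreated, 5416 to 6138 CPM at 8 h and 4577 to 5305 CPM at 24 h. Within it VIM, by far the largest part, had means of 4899 CPM untreated and 3551 CPM at 24 h, and SOX2 had 79.9 and 69.4 CPM. S100B ran from 84.4 to 177 CPM untreated and from 288 to 395 CPM at 24 h. The means of OLIG2 were 8.31 and 11.9 CPM and those of NES 948 and 962 CPM. The part of these shifts in the results below was not tested.

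The core of the antioxidant response element, written TGACNNNGCA and searched on both strands, was looked for in the RefSeq promoter windows (250 bases before to 50 after a start site, GRCh38.p14) of the 28 genes that have one. It occurred in 5 of their 44 windows (11.4%), belonging to GCLM, GSTP1, KEAP1, MGST1 and TXNRD1, and in 3.18% of all 35116 windows. An AP-1 site, TGAGTCA, whose letters can overlap the longer core, occurred in 6.82% of the 44 windows and in 4.95% of all windows. The 150 bases before the start are shown for 3 genes whose RNA took different courses after formate: NQO1, which was higher at 24 h, GCLM, which was lower, and GSTP1, which passed in neither fit. They lie at chr16:69726561-69726710 on the minus strand for NQO1, chr1:93909431-93909580 on the minus strand for GCLM and chr11:67583662-67583811 on the plus strand for GSTP1. Capitals mark a match to the core, which in GCLM lies on the opposite strand. The NQO1 stretch holds no match to these letters, and bases beyond the windows were not searched. In GSTP1 the match overlaps an AP-1 match on the opposite strand.
NQO1: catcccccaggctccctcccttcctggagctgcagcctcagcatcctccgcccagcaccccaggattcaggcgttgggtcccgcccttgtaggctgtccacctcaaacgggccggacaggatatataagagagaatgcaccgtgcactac
GCLM: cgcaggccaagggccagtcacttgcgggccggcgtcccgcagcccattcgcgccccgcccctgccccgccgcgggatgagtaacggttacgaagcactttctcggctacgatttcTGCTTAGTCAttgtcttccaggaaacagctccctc
GSTP1: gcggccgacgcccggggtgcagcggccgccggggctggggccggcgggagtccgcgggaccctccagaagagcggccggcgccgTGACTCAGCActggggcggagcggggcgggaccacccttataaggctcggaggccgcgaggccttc

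In untreated cells the genes covered a wide range of levels. Per kilobase of exon, the highest mean level was that of FTL, the ferritin light chain, at 783 CPM per kb, followed by FTH1, the ferritin heavy chain, at 320 and PRDX1, a cytosolic peroxiredoxin, at 303 CPM per kb. PRDX5 (233 CPM per kb), TXN (213), NQO1 (193) and GSTP1 (182) came next, and from FTH1 to GSTP1 neighbours in this order differed by less than the spread of the untreated libraries. At the low end stood AKR1C2 at 0.519, MGST1 at 0.452, AKR1B10 at 0.399 and SRXN1 at 0.0791 CPM per kb. Both ferritin chains were thus among the most abundant of these RNAs and AKR1C2 and AKR1B10 among the rarest, while the peroxiredoxins spread from 303 CPM per kb for PRDX1 down to 38.4 for PRDX2. Variation among the 3 untreated libraries was a median coefficient of variation of 15.9% over the 36 tested genes, against 15.5% over all tested genes, and was 6.65% at 8 h and 7.06% at 24 h (9.78% and 10.3% over all tested genes).

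**Figure D1:**
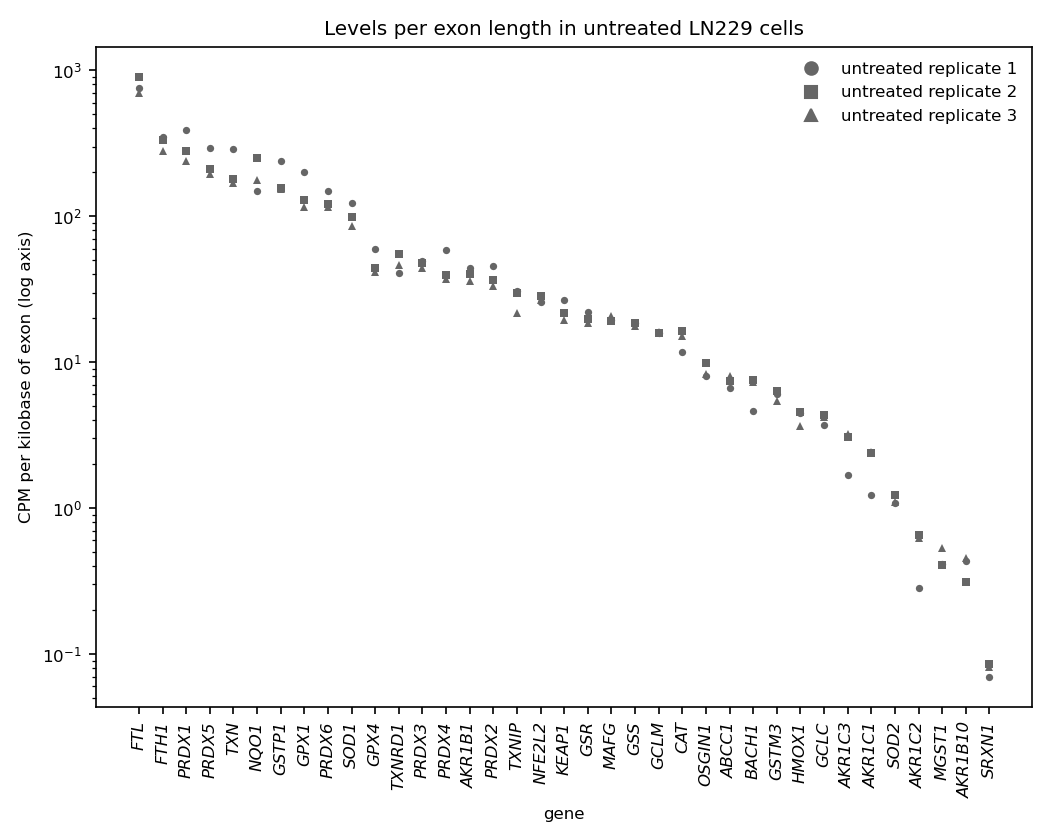
Level per kilobase of exon (log scale, CPM per kb) of the 37 genes in the 3 untreated libraries, with a point for each library and genes ordered by their mean. FTL with a mean of 783 CPM per kb is the most abundant and SRXN1 at 0.0791 the least.

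The 24 h libraries were compared with the untreated ones to ask which of these genes differ after a day in formate. One member, SOD2, rose by the quasi-likelihood test of edgeR, with p-values adjusted by the Benjamini-Hochberg method over all tested genes. That is 1 of 36 (2.78%) beside 4.25% of all genes tested, of which 2.47% rose and 1.77% fell, while no member fell. In the blocked fit 7 members rose (NQO1, AKR1C1, AKR1C2, GSTM3, CAT, SOD2 and FTL) and 4 fell (OSGIN1, GCLM, TXN and PRDX1). That is 11 of 36 (30.6%) beside 24.1% of all genes, with 12.6% of all genes higher and 11.6% lower, so the share called is near the background. Log2 fold changes ran from -1.28 to 0.90, with a median of -0.06 beside 0.01 over all tested genes, and 16 were positive and 20 negative. The 24 h and untreated libraries did not overlap in 12 members, of which NQO1, AKR1C2, GCLC, GSTM3, CAT, SOD2 and FTL were higher and MAFG, AKR1B10, OSGIN1, GCLM and TXN lower, beside 30.2% of all genes (15.8% higher and 14.4% lower). Before adjustment 10 members had p under 0.05, beside 26.4% of all genes. The genes of the pathway thus had no common direction. In bulk RNA a change in the share of cells and a change in RNA per cell cannot be told apart.

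**Figure D2:**
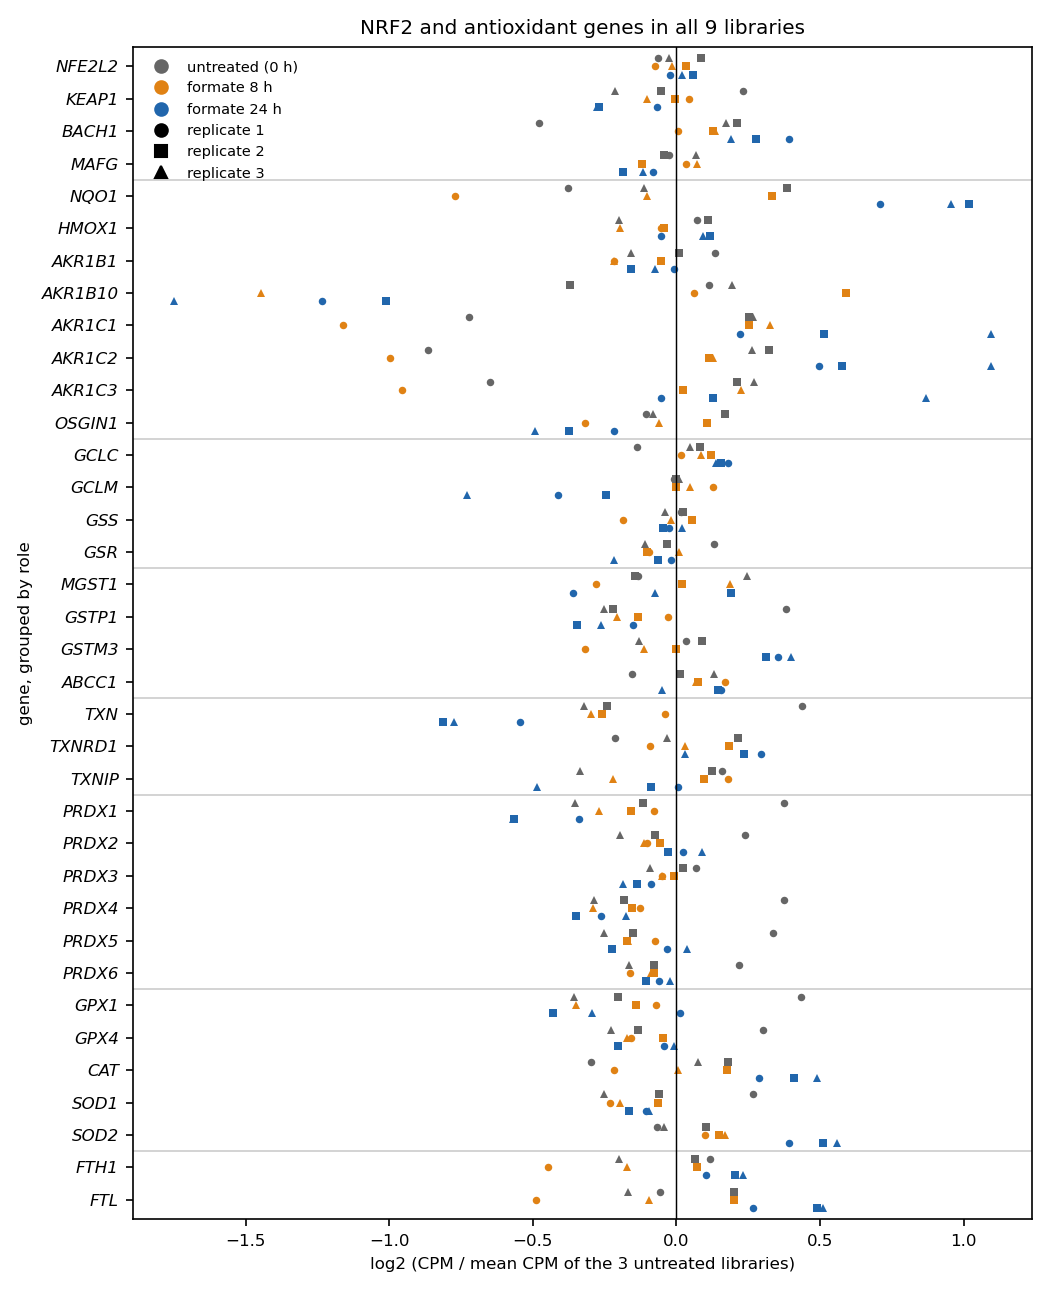
Level of each of the 36 tested genes in each of the 9 libraries, as log2 of CPM over the mean of the 3 untreated libraries; colours give the time and symbols the replicate number. The 24 h libraries of NQO1 lie to the right and those of TXN and GCLM to the left of all untreated libraries.

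The number of members called without the block depended on single libraries. It was 0 without 24 h replicate 2 or without 24 h replicate 3, where no gene at all was called, and 0 without 8 h replicate 3, where 284 of 15576 genes were. It was 1 without untreated replicate 3 (418 of 15591 genes), and that gene was TXN rather than SOD2. It was 3, namely NQO1, TXN and SOD2, without untreated replicate 2 (574 of 15619 genes) and without 8 h replicate 1 (765 of 15605 genes). In the blocked fit, leaving out 1 library gave 5 to 12 members, the fewest without 24 h replicate 3 (5 members, with 2482 of 15489 genes) and 24 h replicate 1 (6 members, with 2213 of 15613 genes). NQO1, TXN, CAT and SOD2 passed in all 9 of those fits, GCLM and PRDX1 in 8, AKR1C1 and AKR1C2 in 7, GSTM3 and FTL in 5 and OSGIN1 in 3. Without the block, leaving out all libraries numbered 1, untreated replicate 1 among them, gave 10 members, 6 higher and 4 lower, beside 16.9% of all genes tested (8.95% higher and 7.96% lower). These were NQO1, AKR1C1, GSTM3, CAT, SOD2 and FTL, which were higher, and OSGIN1, GCLM, TXN and PRDX1, which were lower. Leaving out all libraries numbered 2, or all numbered 3, gave 0 members, with 0 of 15400 and 0 of 15238 genes called.

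Among the 4 regulators no gene passed in either fit. NFE2L2, the gene of NRF2 itself, had 154, 171 and 158 CPM in untreated replicates 1 to 3, 153, 165 and 159 CPM at 8 h and 159, 167 and 163 CPM at 24 h. These levels overlapped fully, and the log2 fold change at 24 h against 0 h was 0.02 ± 0.09 (SE, n = 3 libraries a group, edgeR adjusted p = 0.913). KEAP1, the NRF2 inhibitor and ubiquitin ligase adaptor, had 99.9, 81.9 and 73.4 CPM untreated, 87.7, 84.8 and 79.2 CPM at 8 h and 81.1, 70.6 and 70.3 CPM at 24 h. Its groups overlapped, with a log2 difference of -0.20 ± 0.12 (edgeR adjusted p = 0.297). BACH1, the heme-sensitive repressor, had 35.8, 57.8 and 56.2 CPM untreated, 50.1, 54.5 and 54.8 CPM at 8 h and 65.5, 60.5 and 57.0 CPM at 24 h. Untreated replicate 1 was far below the other two untreated libraries, and the log2 difference was 0.29 ± 0.16 (edgeR adjusted p = 0.256). MAFG, a small MAF partner of NRF2, had 101, 99.5 and 108 CPM untreated, 105, 94.5 and 108 CPM at 8 h and 97.0, 90.1 and 94.6 CPM at 24 h. All 24 h libraries lay just below the untreated ones, by a log2 difference of -0.13 ± 0.09 (edgeR adjusted p = 0.370).

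NQO1, the quinone reductase that is the most used readout of NRF2 activity, had the highest log2 fold change of all 36 tested members. It is annotated at chr16:69706996-69726951 on the minus strand (GRCh38, GENCODE 29). It had 482, 819 and 579 CPM untreated, 367, 790 and 584 CPM at 8 h, and 1025, 1271 and 1215 CPM at 24 h. Every 24 h library was above every earlier one, and replicate 1 was the lowest in each group. At 24 h against 0 h the log2 fold change was 0.90 ± 0.26 and missed the threshold without the block (edgeR adjusted p = 0.0658). With the block it was 0.94 ± 0.13 and passed (edgeR adjusted p = 0.000659). Within the replicate numbers 1, 2 and 3 the folds were 2.12, 1.55 and 2.10. Exons of genes on the other strand cover 17.7% of its exons, and the strand setting of the counting is not given in the sources used here.

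The aldo-keto reductases reduce aldehydes, ketones and steroids, and AKR1C1, AKR1C2 and AKR1C3 are neighbours on chromosome 10. AKR1C1 had 10.7, 21.0 and 21.2 CPM untreated, 7.89, 21.0 and 22.1 CPM at 8 h and 20.5, 25.2 and 37.7 CPM at 24 h. AKR1C2 had 1.84, 4.19 and 4.02 CPM untreated, 1.68, 3.63 and 3.66 CPM at 8 h and 4.73, 5.0 and 7.16 CPM at 24 h. AKR1C3 had 7.68, 13.9 and 14.5 CPM untreated, 6.22, 12.2 and 14.1 CPM at 8 h and 11.6, 13.2 and 21.99 CPM at 24 h. In all 3 genes replicate 1 was the lowest library of every group, at 0 h and 8 h by a wide margin, and the 24 h libraries overlapped the untreated ones in AKR1C1 and AKR1C3 but not in AKR1C2. Without the block none passed at 24 h against 0 h, and in the blocked fit AKR1C1 rose by 0.68 ± 0.16 (edgeR adjusted p = 0.0120) and AKR1C2 by 0.78 ± 0.20 (edgeR adjusted p = 0.0176) on the log2 scale. Their values without the block were 0.65 ± 0.36 (edgeR adjusted p = 0.267) and 0.74 ± 0.34 (edgeR adjusted p = 0.190). AKR1C3 had a log2 difference of 0.37 ± 0.33 (edgeR adjusted p = 0.481, and 0.0884 with the block). AKR1C1 shares 28.6% of its 50-base exon stretches with other genes and AKR1C2 shares 38.9%, mostly with each other, so their separate levels are uncertain.

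AKR1B10, a reductase of retinal and lipid aldehydes, was rare, with 16, 14 and 18 counts untreated, 16, 24 and 6 counts at 8 h and 7, 8 and 5 counts at 24 h. Levels at 24 h were below the untreated ones while the 8 h libraries spanned both, and the log2 difference of -1.28 ± 0.49 at 24 h against 0 h did not pass (edgeR adjusted p = 0.135, and 0.0649 with the block). AKR1B1, the abundant aldose reductase, had a mean of 147 ± 14.7 CPM (SD, n = 3) untreated and a log2 difference of -0.08 ± 0.10. HMOX1, the heme oxygenase that NRF2 induces and BACH1 represses, had 10.7, 11.0 and 8.84 CPM untreated, 9.80, 9.88 and 8.88 CPM at 8 h and 9.80, 11.0 and 10.9 CPM at 24 h. Its groups overlapped, with a log2 difference of 0.05 ± 0.13 (edgeR adjusted p = 0.811). OSGIN1, an oxidative stress-induced growth inhibitor, had 28.0, 33.9 and 28.5 CPM untreated, 24.1, 32.4 and 28.9 CPM at 8 h and 25.9, 23.2 and 21.4 CPM at 24 h. All 24 h libraries were below the untreated ones; the log2 difference of -0.36 ± 0.13 did not pass (edgeR adjusted p = 0.127), and in the blocked fit OSGIN1 fell by 0.35 on the log2 scale (edgeR adjusted p = 0.0454). Within this group of 8 enzymes, then, NQO1, AKR1C1 and AKR1C2 rose and OSGIN1 fell with the block, and none passed without it.

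Glutathione synthesis begins with glutamate-cysteine ligase, made of the catalytic subunit GCLC and the modifier subunit GCLM, both classical NRF2 targets. GCLC had 32.0, 37.2 and 36.4 CPM untreated, 35.6, 38.3 and 37.4 CPM at 8 h and 39.9, 39.2 and 38.8 CPM at 24 h. GCLM had 85.9, 86.2 and 87.0 CPM untreated, 94.4, 86.4 and 89.3 CPM at 8 h and 64.9, 72.9 and 52.1 CPM at 24 h. Levels at 24 h lay above the untreated ones for the catalytic subunit and below them for the modifier. GCLC had a log2 difference of 0.16 ± 0.09 (edgeR adjusted p = 0.292, and 0.187 with the block). GCLM, at chr1:93885205-93909456 on the minus strand, had -0.45 ± 0.12 (edgeR adjusted p = 0.0523) and in the blocked fit fell by 0.46 on the log2 scale (edgeR adjusted p = 0.00991). GSS, glutathione synthetase, and GSR, glutathione reductase, had log2 differences of -0.02 ± 0.09 and -0.10 ± 0.10 and did not pass in either fit.

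GSTM3, a glutathione S-transferase of the mu class, had 28.8, 29.97 and 25.7 CPM untreated, 22.6, 28.1 and 26.1 CPM at 8 h and 35.96, 34.95 and 37.1 CPM at 24 h. The 3 libraries at 24 h were close together and above all earlier ones. The log2 fold change was 0.35 ± 0.11 without the block (edgeR adjusted p = 0.0787), and in the blocked fit GSTM3 rose by 0.36 ± 0.10 (edgeR adjusted p = 0.0238). GSTP1, the pi class transferase and one of the more abundant RNAs here, had a mean of 348 ± 91.4 CPM (SD, n = 3) untreated and 293 ± 20.1 CPM at 24 h, a log2 difference of -0.25 ± 0.16 (edgeR adjusted p = 0.324). MGST1, a microsomal transferase at 3.36 ± 0.536 CPM untreated, and ABCC1, a membrane exporter of glutathione conjugates at 56.0 ± 5.50 CPM, had log2 differences of -0.06 ± 0.21 and 0.09 ± 0.10. None of these 3 passed in either fit.

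In the thioredoxin system the electron carrier fell in the blocked fit, and its reductase passed in neither fit. TXN, the cytosolic thioredoxin at chr9:110243811-110256640 on the minus strand, had 329, 205 and 194 CPM untreated, 236, 203 and 198 CPM at 8 h and 166, 138 and 142 CPM at 24 h. All 24 h libraries were below all others, and untreated replicate 1 was far above its group. The log2 difference was -0.71 ± 0.18 without the block (edgeR adjusted p = 0.0525), and in the blocked fit TXN fell by 0.68 on the log2 scale (edgeR adjusted p = 0.00153). Without the libraries numbered 1 it also passed (edgeR adjusted p = 0.00138), but without those numbered 2 or those numbered 3 neither TXN nor any other gene passed. TXNRD1, the thioredoxin reductase and an NRF2 target, had 273, 368 and 310 CPM untreated, 297, 360 and 324 CPM at 8 h and 389, 374 and 324 CPM at 24 h. These groups overlapped, with a log2 difference of 0.19 ± 0.13 (edgeR adjusted p = 0.367). TXNIP, an arrestin family protein that binds thioredoxin and responds to glucose, had 111, 109 and 79.0 CPM untreated, 113, 106 and 85.4 CPM at 8 h and 100, 93.8 and 71.2 CPM at 24 h. Replicate 3 was the lowest in every group, the groups overlapped and the log2 difference was -0.17 ± 0.17 (edgeR adjusted p = 0.511). SRXN1, sulfiredoxin, which reactivates oxidised peroxiredoxins, had 2 to 6 counts a library and was not tested; 85.0% of its exons are covered on the same strand by another annotated gene.

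Peroxiredoxins use a reactive cysteine to reduce peroxides and are recharged mainly by thioredoxin. PRDX1 had 598, 425 and 361 CPM untreated, 437, 414 and 383 CPM at 8 h and 365, 312 and 311 CPM at 24 h. Untreated replicate 1 was again far above its group, and 24 h replicate 1 overlapped untreated replicate 3. The log2 difference of -0.49 ± 0.17 did not pass without the block (edgeR adjusted p = 0.106), and in the blocked fit PRDX1 fell by 0.47 on the log2 scale (edgeR adjusted p = 0.00990). Exons of MMACHC on the other strand cover 24.9% of its exons. None of PRDX2 to PRDX6 passed in either fit, and their groups overlapped. Their log2 differences were 0.03 ± 0.11 for PRDX2, a second cytosolic form with 14.1% of its exons covered on the other strand, -0.14 ± 0.09 for the mitochondrial PRDX3, -0.26 ± 0.15 for PRDX4 of the endoplasmic reticulum, -0.07 ± 0.15 for PRDX5 and -0.06 ± 0.11 for PRDX6.

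SOD2, the mitochondrial manganese superoxide dismutase, was the member that passed without the block. It had 17.9, 20.1 and 18.2 CPM untreated, 20.1, 20.8 and 21.1 CPM at 8 h and 24.6, 26.7 and 27.7 CPM at 24 h. Levels at 24 h were above all others, and replicates within each group were close. At 24 h against 0 h SOD2 rose by 0.49 ± 0.10 on the log2 scale (edgeR adjusted p = 0.0282). The adjusted p ranged from 0.0270 to 0.143 when 1 library was left out. It missed the threshold without untreated replicate 3 (0.0567), 8 h replicate 3 (0.0501), 24 h replicate 2 (0.134) or 24 h replicate 3 (0.143). In the blocked fit it passed whichever of the 9 libraries was left out. Its row is annotated at chr6:159669057-159745186 on the minus strand, and the annotation holds a second entry of the same name that overlaps 5.12% of its exons. The row shares 9.15% of its exon stretches with other genes. It was matched by its GENCODE 29 name, since the symbol list used for the other members gives SOD2 to an identifier absent from the counts.

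CAT, catalase, which breaks down hydrogen peroxide in peroxisomes, had 41.9, 58.4 and 54.4 CPM untreated, 44.4, 58.3 and 51.8 CPM at 8 h and 63.0, 68.4 and 72.4 CPM at 24 h. Each 24 h library was above every earlier library. The log2 difference was 0.40 ± 0.14 without the block (edgeR adjusted p = 0.111), and in the blocked fit CAT rose by 0.41 ± 0.09 (edgeR adjusted p = 0.00801). SOD1, the cytosolic superoxide dismutase, and the glutathione peroxidases GPX1 and GPX4, of which GPX4 acts on lipid peroxides, did not pass in either fit. Their log2 differences were -0.12 ± 0.13, -0.22 ± 0.19 and -0.08 ± 0.13. GPX1 shares 14.7% of its exon stretches with other genes, mostly with a pseudogene.

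Ferritin stores iron in a shell of heavy and light chains, and both chain genes are NRF2 targets. FTL had 660, 790 and 612 CPM untreated, 489, 789 and 644 CPM at 8 h and 827, 965 and 980 CPM at 24 h. Levels at 24 h were above all others, with a log2 difference of 0.43 ± 0.17 (edgeR adjusted p = 0.148), and in the blocked fit FTL rose by 0.43 ± 0.11 (edgeR adjusted p = 0.0183). FTH1 had means of 650 ± 74.1 CPM (SD, n = 3) untreated and 737 ± 34.4 CPM at 24 h, a log2 difference of 0.18 ± 0.14 (edgeR adjusted p = 0.425). Exons of BEST1 on the other strand cover 62.4% of the exons of FTH1. Both have many processed pseudogenes, with 25 named after FTH1 and 16 after FTL, and share 19.9% and 18.3% of their exon stretches with other genes, so reads could be split among copies.

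**Figure D3:**
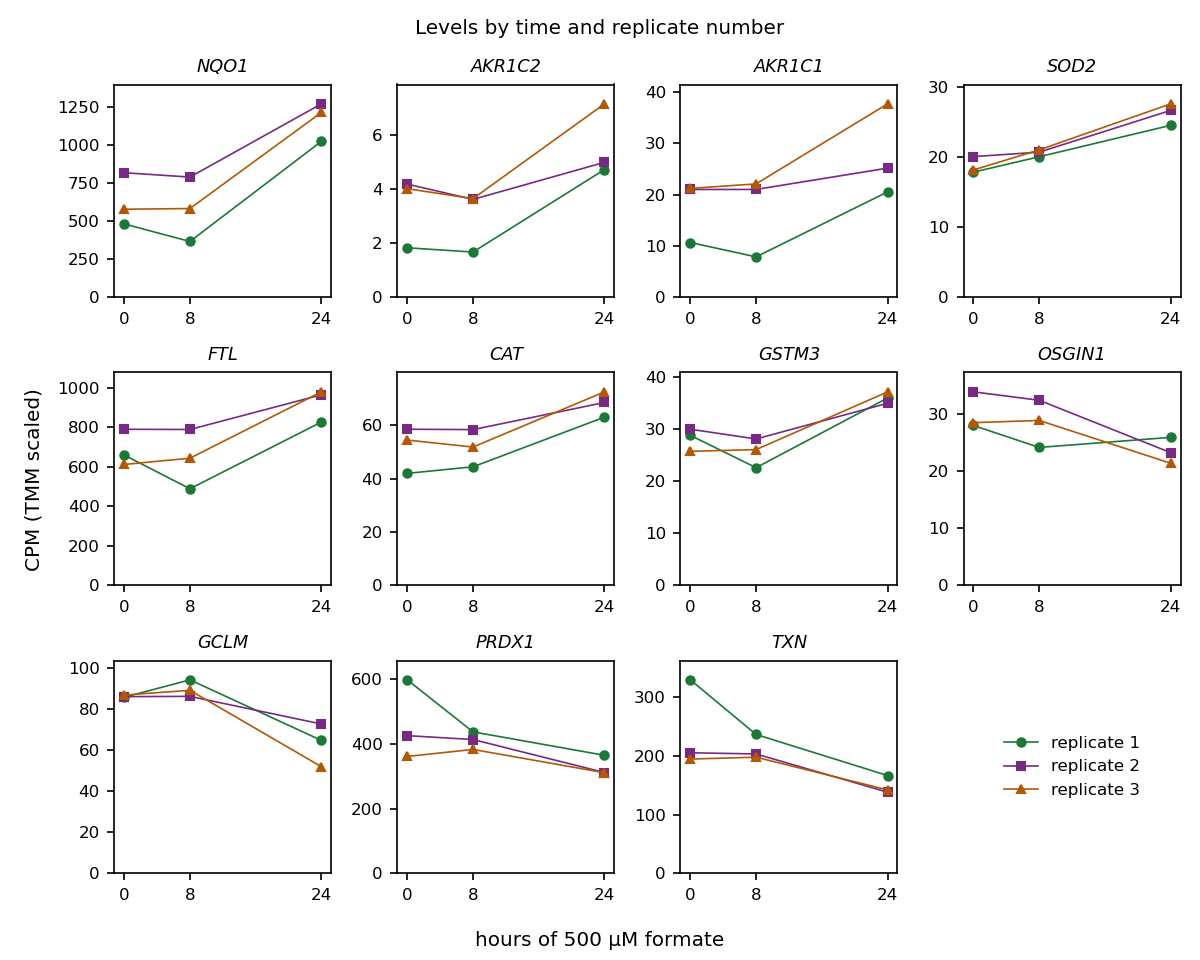
Level in CPM against hours of formate for the 11 genes that passed at 24 h against 0 h with or without the replicate block; lines join libraries with the same replicate number. Levels at 8 h lie near those at 0 h in most panels and apart from those at 24 h, for example NQO1 at 367 to 790 CPM at 8 h and 1025 to 1271 CPM at 24 h.

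At 8 h of formate no member passed the test against the untreated libraries. None of the 36 was called by edgeR, beside 0% of all 15273 genes, and none had an unadjusted p under 0.05, beside 0.517% of all genes. DESeq2, limma voom and the blocked fit also called 0 members. Log2 differences ran from -0.19 for TXN to 0.14 for SOD2, with a median of -0.09 beside -0.02 over all genes, and 29 were negative. This lean did not hold without the libraries numbered 1, where most differences were positive, TXN had 0.004 and SOD2 had 0.13. No member had groups that did not overlap, beside 3.31% of all genes. The median standard error was 0.13, which limits what could be detected.

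Libraries from 24 h were then set against the 8 h libraries, both in formate, which tests whether the differences from the untreated libraries are unequal at 8 h and 24 h, since those comparisons share the untreated libraries. NQO1 and GSTM3 rose and GCLM fell, 3 of 36 members (8.33%) beside 4.56% of all genes (2.84% higher and 1.72% lower), and 10 members had an unadjusted p under 0.05, beside 22.8% of all genes. NQO1 rose by 1.01 ± 0.26 on the log2 scale (edgeR adjusted p = 0.0485), GSTM3 rose by 0.49 ± 0.11 (edgeR adjusted p = 0.0322) and GCLM fell by 0.51 (SE 0.12, edgeR adjusted p = 0.0358). NQO1 lies at the threshold and was not called with the size factors of DESeq2 (adjusted p = 0.0519) or with a filter of at least 5 CPM on the mean (adjusted p = 0.0546). No member was called without 8 h replicate 1, 8 h replicate 3, 24 h replicate 2 or 24 h replicate 3. Leaving out untreated replicate 3 ended the call of NQO1, leaving out 8 h replicate 2 ended that of GCLM, and leaving out untreated replicate 1 gave 8 members, beside 2545 of 15598 genes. Groups did not overlap in 14 members, 10 higher and 4 lower at 24 h, beside 34.3% of all genes (18.2% higher and 16.2% lower). SOD2 had 0.35 ± 0.10 (edgeR adjusted p = 0.0660), FTL 0.53 ± 0.17 (edgeR adjusted p = 0.0963) and TXN -0.51 ± 0.18 (edgeR adjusted p = 0.123), none of which passed without the block. Without the libraries numbered 1, 11 members were called, 7 higher and 4 lower, beside 19.9% of all genes (10.5% higher and 9.38% lower). Without the libraries numbered 2, or without those numbered 3, no member and no other gene was called.

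**Figure D4:**
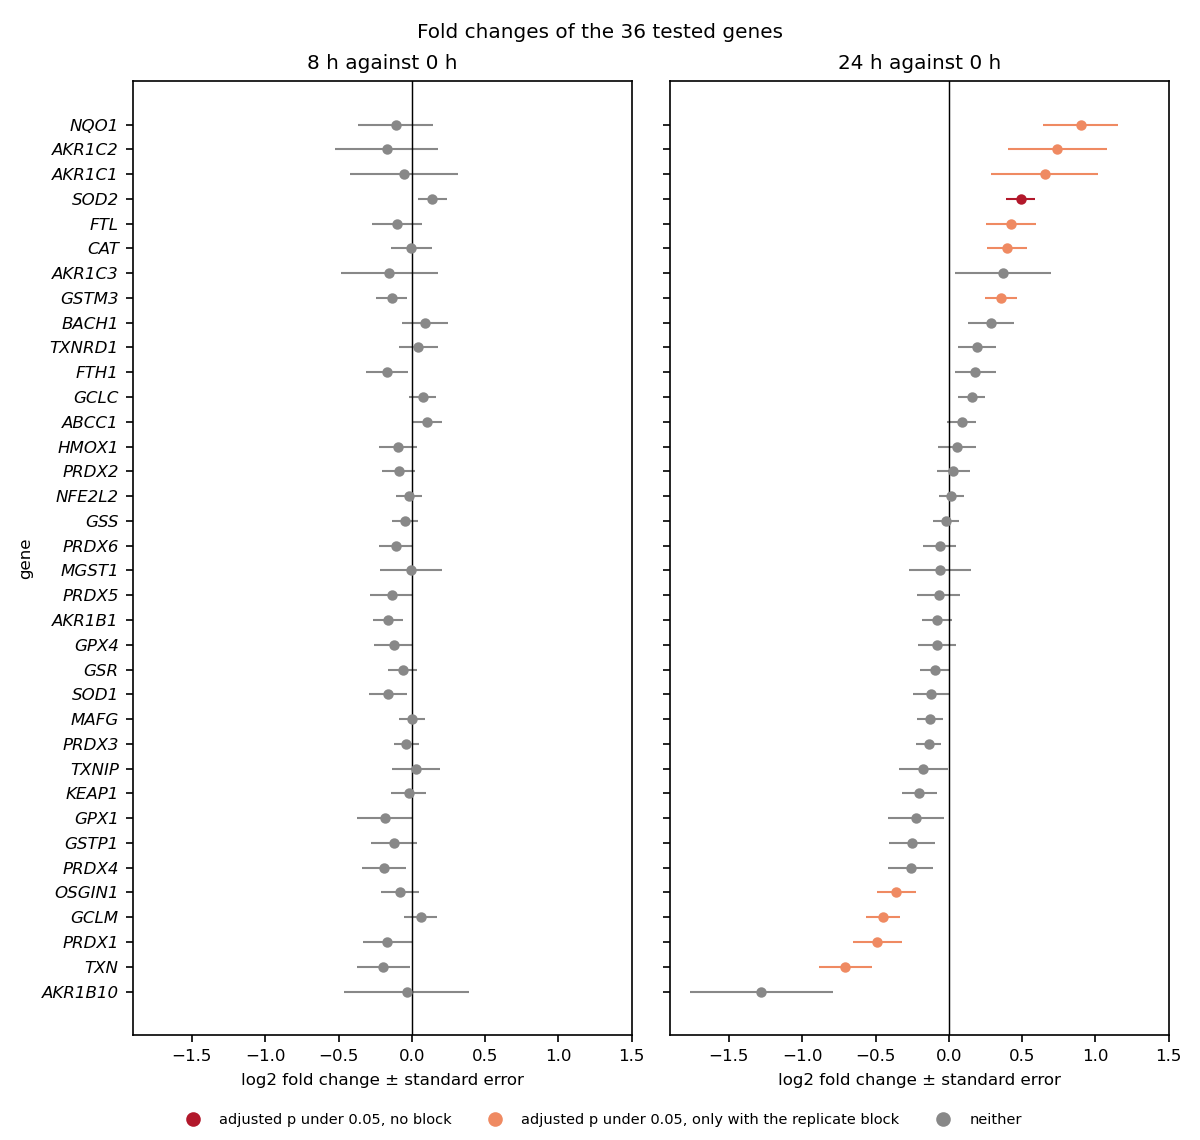
Log2 fold change with its standard error for the 36 tested genes, at 8 h against 0 h and at 24 h against 0 h, from the fit without the replicate block; red marks SOD2, which passed in it, and orange the genes that passed in the blocked fit only. At 8 h values lie between -0.19 and 0.14 and at 24 h between -1.28 and 0.90.

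The same comparisons were made for other genes of the pathway and its surroundings, in 7 lists drawn up by function with earlier results of these data known. Of the listed genes 123 were in the count table, and those that did not pass the filter on low counts were not tested. Their counts with the block stand beside 24.1% of all genes called, 12.6% higher and 11.6% lower. Without the block 2 of them passed at 24 h against 0 h, and both fell; neither passed without 24 h replicate 2 or without 24 h replicate 3. MAFK, another small MAF partner of NRF2, had 49.8, 37.4 and 41.7 CPM untreated and 26.1, 24.9 and 25.4 CPM at 24 h, and fell by 0.75 on the log2 scale (edgeR adjusted p = 0.0215). It was the 1 gene called among 14 other regulators, whose median log2 difference was -0.11. AIFM2, which reduces ubiquinone at membranes and limits lipid peroxidation, had 52.8, 42.2 and 40.7 CPM untreated and 33.3, 28.96 and 27.9 CPM at 24 h, and fell by 0.59 on the log2 scale (edgeR adjusted p = 0.0297). It was the 1 gene called among 29 tested genes in the list of other NRF2 targets, where 3 rose and 1 fell in the blocked fit and the median log2 difference was 0.18. Of those 3, the glutathione transferases GSTA4 and GSTM4 rose by 0.45 and 0.31 on the log2 scale with the block (edgeR adjusted p = 0.0101 and 0.0322).

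In the other 5 lists no gene passed at 24 h against 0 h without the block; the log2 fold changes that follow are from the blocked fit, and those named had edgeR adjusted p from 0.00160 to 0.0462. Of 21 other glutathione and peroxidase genes 2 rose, GSTT2B (0.52), a theta class transferase, and OPLAH (0.46), which recycles oxoproline to glutamate, and 1 fell, the monothiol glutaredoxin GLRX3 (-0.56). Of 19 other thioredoxin, methionine sulfoxide and superoxide genes 3 rose and 3 fell; SESN1, a sestrin, had a log2 change of 0.55, NXN, nucleoredoxin, 0.95 and TXNL1, a thioredoxin-like protein, -0.43. Of 16 genes of iron and heme handling 3 rose and 1 fell. The 3 that rose were SLC40A1, the iron exporter ferroportin, at 1.08, ACO1, an aconitase that doubles as an iron sensor, at 0.33, and ACSL4, which loads membranes with polyunsaturated fatty acids, at 0.33. Of the genes that produce oxidants 3 were tested and all 3 passed: the amine oxidases MAOB (1.25) and MAOA (0.39) rose and XDH, xanthine dehydrogenase, fell (-1.53). XDH had 1.33 to 2.92 CPM untreated and 0.580 to 0.972 CPM at 24 h, and MAOB 0.565 to 1.73 CPM and 1.65 to 3.93 CPM, so both are at low levels. SLC40A1 was rarer still, with 13 to 15 counts a library untreated and 23 to 42 counts at 24 h. NXN was low too, with 19 to 41 counts a library untreated and 47 to 66 counts at 24 h. Among 6 relatives of TXNIP and the MondoA pathway only ARRDC3, an arrestin domain protein, passed (0.32). At 8 h against 0 h no gene of the 7 lists passed edgeR's test in either fit, and none had an unadjusted p under 0.05 without the block. At 24 h against 8 h without the block, GSTM4 and GSTA4 rose and AIFM2 fell among 29 other NRF2 targets. MAFK fell among 14 other regulators, NXN rose among the 19 thioredoxin and related genes and XDH fell among the 3 oxidant genes. These calls stand beside 4.56% of all genes (2.84% higher and 1.72% lower). None held without 8 h replicate 1, 8 h replicate 3, 24 h replicate 2 or 24 h replicate 3.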

How the data were processed

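Stranded mRNA libraries were made from total RNA of LN229 cells and give 9 samples, per the labels' protocols. The submitters' processing notes name bcl2fastq 2.20.0.422, STAR 2.7.4a and GRCh38; the counting program and its strand setting are not given in the sources used here. The deposited values are raw read counts per Ensembl gene, as their whole numbers and unequal totals show. All 37 genes were matched by symbol, 36 through a symbol table and SOD2 by its GENCODE 29 name. Counts were filtered with filterByExpr, scaled with TMM and tested with edgeR 4.0.16 (R 4.3.3) in a quasi-likelihood model with 1 mean per group over 9 libraries, two-sided, with Benjamini-Hochberg adjustment over 15273 genes and a threshold of 0.05. All 3 comparisons come from 1 fit and share libraries. Alternatives were DESeq2 1.42.0 and its size factors, limma 3.58.1 voom, no filter, a mean of at least 5 CPM, the replicate block, only the groups compared and leaving out libraries. Replicate numbers were taken to pair libraries where every same-number correlation of deviations was over 0.1: it was 0.244 to 0.416 between 0 h and 24 h, and 0.470 to 0.622 between 0 h and 8 h, but as low as 0.0984 between 8 h and 24 h. The members and lists were chosen with earlier results of these data known. Genes called in any fit, the regulators and the classical targets are given in full, the other members by mean or change, and up to 3 called genes of each other list. One list of cell type markers is not reported here.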

Additional observations from a re-analysis of the deposited data

Results flagged for a closer look

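The differences from the untreated libraries were unequal at 8 h and 24 h in 3 genes by edgeR's quasi-likelihood test of 24 h against 8 h, which is the test of that inequality because both comparisons share the untreated libraries. For NQO1 the log2 difference between 24 h and 8 h was 1.01 (edgeR adjusted p = 0.0485). It was -0.51 for GCLM (edgeR adjusted p = 0.0358) and 0.49 for GSTM3 (edgeR adjusted p = 0.0322). At 8 h against 0 h these 3 genes had log2 differences of -0.11, 0.06 and -0.14, and none passed.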

How the results depend on the processing

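At 24 h against 0 h, 649 genes and 1 member were called. DESeq2 gave 1656 genes and 6 members, the replicate block 3687 and 11, and a fit of only the groups compared 124 and 0; limma voom gave 668 genes and 2 members, and no filter on low counts 869 and 4. At 24 h against 8 h, 696 genes and 3 members were called, against 1486 and 5 with DESeq2, 3130 (20.5% of genes tested) and 10 with the replicate block, and 1787 and 6 with only the groups compared. Over the fits that leave out libraries, with and without the block, counts at 24 h against 0 h ran from 0 to 3816 genes and 0 to 12 members, and at 24 h against 8 h from 0 to 5432 genes and 0 to 15 members. Without the block no gene was called at 24 h against 0 h without 24 h replicate 2 or 3, nor at 24 h against 8 h without 8 h replicate 1 or 24 h replicate 2 or 3. In both comparisons no gene was called either when all libraries numbered 2, or all numbered 3, were left out. At 8 h against 0 h no member was called under any of these settings. Of the named genes' values under alternatives, 1462 had the same outcome as in the main fit, whether called or not called, 185 gained a call and 30 lost one. Only SOD2 at 24 h against 0 h, and NQO1, GCLM and GSTM3 at 24 h against 8 h, had a call to lose. A reversed sign was scored only where a value passed the threshold, and 0 were found. The cause of these shifts was not tested. For 8 h and 24 h the replicate numbers do not meet the pairing limit, so the blocked counts there rest on a shared number only; SOD2, FTL, TXN, CAT, AKR1C1, AKR1C2 and AKR1C3 were called there with the block and not without it. Replication at 3 libraries a group limits what could be detected, and genes near 0.141 CPM, such as SRXN1, rest on a few counts. Counting intervals cover counting error only.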
